A study of Mus musculus with 2 samples.

Results

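The genes described here are the sarcomere and muscle fibre-type genes, a named list of 39 symbols of the contractile apparatus of striated muscle and its calcium and energy supply. Of these, 38 have a row in the tables of both libraries, among 19465 genes in all, and Xirp2 was not analysed here. The study placed implants with a flat surface or with micropillars, a pattern of small posts, in nude mice, a strain without a thymus, and measured RNA over tissue sections. Spatial transcriptomics was used, in which a section lies on a grid of barcoded spots, and a spot can cover several cells or parts of cells. The first group, called flat, is labelled as nude mice given a flat implant, and the second, called micropillar, as nude mice given a micropillar implant. Both share the labelled tissue, bone, and the formalin-fixed, paraffin-embedded (FFPE) preparation. The labels state no age, no time after implantation and no number of animals per section.

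Each group had 1 library, so no difference below has a replicate check and no test was made. Intervals are 95% exact intervals and cover counting error only. Spots with at least 100 unique molecular identifiers (UMIs, counts of captured transcripts) were kept, 2681 flat and 3064 micropillar spots, with 2263345 and 3173632 UMIs. The labelled bone was not the largest group of spots. Sorted by the marker list with most UMIs, a split chosen after the data were seen, 923 flat and 1246 micropillar spots outside muscle fell to the neuron list (Snap25, Slc17a7, Syt1, Nrgn, Gad1), and 524 and 709 to the fibroblast and bone matrix list (Col1a2, Col3a1, Dcn, Lum, Sparc). Levels are given as CPM, UMIs of a gene over all UMIs of the set of spots, times 1000000. The libraries share 2135 spot barcodes and no muscle spot barcode was a muscle spot in both.

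A muscle fibre contracts when calcium, released from the sarcoplasmic reticulum, binds troponin on the thin actin filament and lets myosin heads of the thick filament pull on it. Many of these proteins exist as a fast and a slow form made from separate genes, and the myosin heavy chain names the fibre: Myh7 for slow type I, Myh2 for IIa, Myh1 for IIx and Myh4 for IIb, the fastest. Slow and IIa fibres rely on oxidative metabolism and myoglobin, and IIb fibres on glycogen and glycolysis.

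The fast myosin genes lie beside each other on chromosome 11 of the mouse genome (GRCm38, the build of the files). Myh2 spans 67171027 to 67197517, Myh1 67200052 to 67224575 and Myh4 67238029 to 67260446, all on the plus strand and in this order. Their promoters are shown because these 3 genes, with nearly identical copies of the coding sequence, carry the fibre-type comparison. The 250 bases before each RefSeq start site (GRCm38.p6, plus strand) hold an identical run of 20 bases, printed in capitals, which no other gene's promoter among the 32841 in that table holds. It lies 130 to 111 bases upstream in Myh2, 165 to 146 in Myh1 and 163 to 144 in Myh4. The regions are chr11:67170777-67171026, chr11:67199852-67200101 and chr11:67237562-67237811.
Myh2: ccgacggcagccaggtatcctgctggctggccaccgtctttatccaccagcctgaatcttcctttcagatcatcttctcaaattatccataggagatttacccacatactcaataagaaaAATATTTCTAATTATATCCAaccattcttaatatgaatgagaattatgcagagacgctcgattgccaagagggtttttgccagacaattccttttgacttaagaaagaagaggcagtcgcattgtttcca
Myh1: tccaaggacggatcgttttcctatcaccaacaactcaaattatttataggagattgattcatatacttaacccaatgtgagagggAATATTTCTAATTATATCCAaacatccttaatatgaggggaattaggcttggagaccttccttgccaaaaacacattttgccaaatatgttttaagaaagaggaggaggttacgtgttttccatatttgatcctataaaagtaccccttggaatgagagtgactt
Myh4: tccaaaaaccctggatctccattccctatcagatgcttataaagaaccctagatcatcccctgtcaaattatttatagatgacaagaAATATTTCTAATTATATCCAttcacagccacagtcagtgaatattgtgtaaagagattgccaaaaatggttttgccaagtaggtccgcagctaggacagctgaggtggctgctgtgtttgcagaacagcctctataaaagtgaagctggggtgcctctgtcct

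Acta1, skeletal muscle actin of the thin filament, lies on chromosome 8 (123891769 to 123894751, minus strand) and is 1 of the 2 genes that define the muscle spots. Its promoter is shown for the site type best known in actin genes, the CArG box of serum response factor, in capitals 73 to 64 bases upstream of the start (chr8:123894776-123895025, minus strand, RefSeq GRCm38.p6).
Acta1: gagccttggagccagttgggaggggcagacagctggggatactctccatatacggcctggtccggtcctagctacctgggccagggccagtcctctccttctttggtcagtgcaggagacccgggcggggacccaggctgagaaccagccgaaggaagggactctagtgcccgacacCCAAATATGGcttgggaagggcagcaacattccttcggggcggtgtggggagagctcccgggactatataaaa

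Of the 38 genes, 30 have promoters in the RefSeq table, 36 promoters in all. The CArG box occurred on either strand in 13.9% of those 36 and in 1.47% of all 32841 promoters of that length, in Acta1, Ldb3, Myh4 and Myl3. Overlapping promoters of a gene are counted separately. Those of Ldb3 hold the same CArG box, and by gene 4 of the 30 have one. The MEF2 site occurred in 11.1% against 2.92%, in Myh1, Myh4, Myoz2 and Ttn, and CATTCC, the M-CAT element, in 25.0% against 12.6%. CANNTG, the E-box bound by myogenic factors and many others, occurred in 83.3% against 66.2%. TATAAA on the gene's strand occurred in 11.1% against 7.59%. These are matches of letters in a window, which describe the sequences only.

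Muscle spots were those in which Acta1 plus Ckm, the creatine kinase of muscle, made up at least 1% of UMIs. In the flat library 268 of 2681 kept spots met this, 9.996% (8.89 to 11.2), and in the micropillar library 31 of 3064, 1.01% (0.688 to 1.43). The gap rested on shallow spots: with at least 250 UMIs per spot 33 flat and 17 micropillar spots met the rule, and with at least 500 UMIs 5 and 7 did, 0.335% and 0.318% of spots. The sets were small in UMIs, 50630 flat and 11046 micropillar UMIs, and shallow, with a median of 164.5 and 267 UMIs per spot against 701 and 840 in the other spots. In 36 flat and 12 micropillar muscle spots the rule rested on 3 or fewer UMIs of the 2 genes. Fewer muscle fibres under a spot and less RNA per fibre cannot be told apart in these data, and neither can the implant and the piece of tissue that each section happened to hold.

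The rule can be read against 34 of the genes that it did not use (leaving out Acta1 and Ckm, and Atp2a2 and Tpm1, which many tissues express). These genes made up 15.6% of UMIs (15.3 to 15.9) in the flat muscle spots and 8.98% (8.45 to 9.53) in the micropillar muscle spots, against 0.0502% and 0.0617% in the other spots. Per muscle spot their share ranged from 0 to 32.8% with a median of 16.0% in the flat library, and from 0 to 17.4% with a median of 5.93% in the micropillar library. A share of at least 10% was reached by 216 flat muscle spots, 80.6%, and by 8 micropillar muscle spots, 25.8%. Just inside the threshold, at 1 to 1.5% of Acta1 plus Ckm, the share was 2.31% over 14 flat and 4.13% over 13 micropillar spots. Just outside, at 0.5 to 1%, it was 1.20% over 38 and 1.61% over 41 spots, so the threshold passes through a gradient. A larger part of the micropillar muscle spots lay near it.

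Markers of fibroblast and bone matrix in these spots differed between the libraries. The 5 fibroblast and bone matrix genes stood at 8098 CPM (7333 to 8921) in the flat and 20460 CPM (17879 to 23309) in the micropillar muscle spots, all 5 detected in both, with Col1a2, a chain of type I collagen, at 5116 and 11678 CPM. Neuron markers were low in both, at 573 CPM (384 to 823) from 29 UMIs and 543 CPM (199 to 1182) from 6 UMIs. Of their 5 genes, 1 was at 0 in the flat and 2 in the micropillar spots. The part of matrix RNA in the differences between the libraries' muscle spots was not tested.

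**Figure D1:**
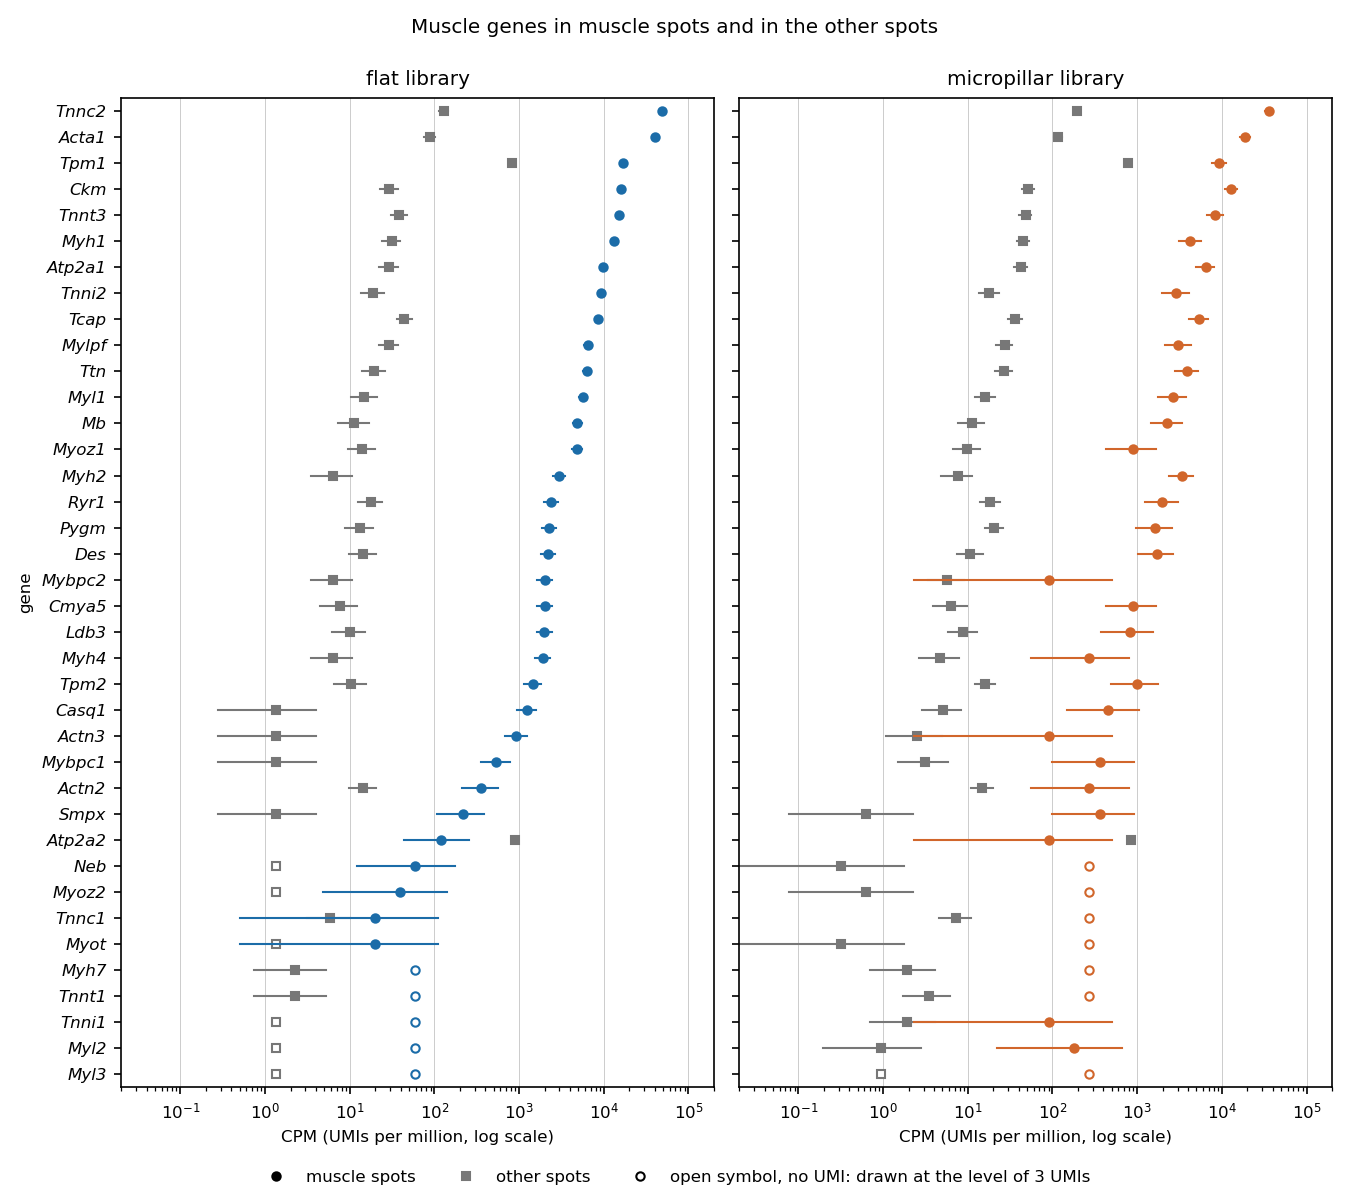
Level of each of the 38 genes in CPM (log axis) in muscle spots (circles) and other spots (grey squares) of the flat (left) and micropillar (right) libraries, with 95% Poisson intervals for counting error. Most circles lie far to the right of the squares, while Atp2a2 is reversed and the slow genes other than Mybpc1 are open or have at most 2 UMIs in muscle spots.

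Most genes of the list stood at a higher level in the muscle spots than outside. Of the 35 genes with a UMI in the flat library, 32 did, where 22.9% of all 15645 genes with a UMI did, and the others were Atp2a2 and 2 genes with no UMI in the muscle spots, Myh7 and Tnnt1. Of the 37 genes with a UMI in the micropillar library 30 did, where 19.3% of 16007 genes did, and the others were Atp2a2 and 6 genes with no UMI there. A gene with few UMIs more often has none in the smaller set of spots. The muscle spots were chosen by Acta1 and Ckm, so these counts describe the spots, and 30 of 33 and 28 of 35 remain without these 2. Ratios are named below mainly for genes with at least 20 UMIs in the muscle spots, observed or expected from the level outside. At the level outside only Atp2a2 and Tpm1 would have met that minimum in the flat library and none in the micropillar library, so a high ratio was a condition of being compared for the rest. Among such genes Casq1, the calcium-binding protein of the sarcoplasmic reticulum, had the highest ratio in the flat library, with 62 UMIs in muscle spots against 3 outside, a log2 ratio of 9.82 (8.20 to 12.1). In the micropillar library Myh2 did, 37 UMIs against 24, a log2 ratio of 8.79 (8.01 to 9.59).

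In the micropillar section most transcripts of the list lay outside the muscle spots. Of the UMIs of the 34 genes, 87.7% (87.0 to 88.4) lay in muscle spots in the flat library and 33.7% (32.0 to 35.4) in the micropillar library. For Tnnc2, the fast troponin C that binds calcium, 2492 UMIs lay in muscle spots and 285 outside in the flat library, against 400 and 616 in the micropillar library. Outside the muscle spots 68.9% of flat and 61.6% of micropillar spots held no UMI of the 34 genes.

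The 6 genes with the lowest ratio of muscle over other spots in the flat library were Atp2a2, Tnnc1, Tpm1, Actn2, Ryr1 and Tpm2, leaving out genes with no UMI in the muscle spots or none outside. Atp2a2, the calcium pump SERCA2 of slow muscle, heart and most other cells, had 6 UMIs in muscle spots and 1985 outside in the flat library, 119 against 897 CPM, and 1 and 2703 UMIs in the micropillar library, 90.5 against 855 CPM. Its log2 ratio was -2.92 (-4.37 to -1.80) in the flat library, at least 2-fold lower as were 47.0% of all genes compared. Tpm1, a tropomyosin of the thin filament also made by non-muscle cells, was higher in muscle spots, at 17026 against 819 CPM and 9325 against 778 CPM, with log2 ratios of 4.38 (4.26 to 4.50) and 3.58 (3.28 to 3.87). Actn2, the alpha-actinin that crosslinks actin at the Z-disc, had 18 UMIs in muscle spots and 32 outside, then 3 and 47, with log2 ratios of 4.62 (3.70 to 5.50) and 4.19 (1.86 to 5.83). Ryr1, the calcium release channel, had ratios of 7.08 (6.55 to 7.64) and 6.76 (5.98 to 7.49), and Tpm2, beta-tropomyosin, 7.14 (6.44 to 7.88) and 5.95 (4.86 to 6.91). Tnnc1, the troponin C of slow muscle and heart, had 1 UMI in muscle spots and 13 outside in the flat library, a log2 ratio of 1.75 (-3.66 to 4.48), and 0 and 23 in the micropillar library.

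The muscle spots of both libraries carried the fast form of nearly every gene pair. Over 8 fast and slow pairs, leaving out the calcium pumps, slow genes gave 30 of 5643 UMIs in the flat muscle spots, 0.532% (0.359 to 0.758), and 7 of 692 in the micropillar muscle spots, 1.01% (0.408 to 2.07). These intervals overlap. Capture efficiency per gene is unknown, so a share can be set against the same share in another library or set of spots, and is not an amount of slow fibre. Outside the muscle spots the share was 3.84% (2.52 to 5.58) and 4.87% (3.74 to 6.21), above the muscle spots of the same library in both. Of the Tnnc1 UMIs outside, 12 of 13 in the flat and 14 of 23 in the micropillar library lay in neuron-list spots. Of Tnnc2, the fast partner, 99 of 285 and 189 of 616 did. The part of neural RNA in this share was not tested.

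Among the myosins, Myh7, the slow heavy chain, had no UMI among 922 heavy chain UMIs in the flat muscle spots, which allows a share of up to 0.325%, and none among 87 in the micropillar muscle spots, which allows 3.45%. It had 5 and 6 UMIs outside. Mylpf, the fast regulatory light chain bound to the myosin neck, had 331 UMIs in the flat muscle spots beside none of the slow Myl2, and 34 beside 2 in the micropillar muscle spots. Myl1, the fast essential light chain, had 289 and 29 UMIs, and the slow Myl3 had none in any kept spot of either library. A count of 0 does not show that a gene is silent, since the probe or capture of Myl3 cannot be judged where no spot has a UMI. The same holds for Myl2 in the flat library, where no kept spot had a UMI of it.

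For troponin, the calcium switch, nearly all UMIs in the muscle spots were of the fast gene in all 3 subunits. Tnnt3, which ties troponin to tropomyosin, had 759 and 92 UMIs in the muscle spots, beside none of the slow Tnnt1 in either library. Tnnt1 had 5 and 11 UMIs outside. Tnnc2 had 2492 and 400 UMIs beside 1 and 0 of Tnnc1, a slow share of 0.0401% (0.00102 to 0.223) in the flat library. Tnni2, the inhibitory subunit, had 474 and 32 UMIs beside 0 and 1 of the slow Tnni1. Tnni1 had no UMI in any kept flat spot, so its capture in that library cannot be judged.

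Atp2a1, the fast-fibre calcium pump SERCA1, had 496 and 71 UMIs in muscle spots beside 6 and 1 of Atp2a2, a slow share of 1.20% (0.440 to 2.58) and 1.39% (0.0352 to 7.50). Outside the same share was 96.9% and 95.3%, where most Atp2a2 lay in spots with neural markers. Myoz1, the calsarcin of fast fibres at the Z-disc, had 244 and 10 UMIs beside 2 and 0 of the slow Myoz2. Myosin binding protein C was the 1 pair with a sizeable slow share, 27 UMIs of Mybpc1 beside 102 of the fast Mybpc2 in the flat muscle spots, 20.9% (14.3 to 29.0). In the micropillar muscle spots it was 4 of 5 UMIs, 80.0% (28.4 to 99.5), too few to place it.

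The remaining genes have no partner in the list. Ttn, titin, the giant spring of the sarcomere, had 320 UMIs in flat and 43 in micropillar muscle spots. Tcap, which binds the end of titin at the Z-disc, had 436 and 59, and Mb, the oxygen store myoglobin, 247 and 25. Of further Z-disc genes, Ldb3 had 101 and 9 UMIs, Actn3 47 and 1, and Myot, myotilin, 1 and 0. Des, the intermediate filament that links neighbouring Z-discs, had 112 and 19. Cmya5 had 102 and 10, Pygm 115 and 18, and Smpx 11 and 4. Neb, the giant protein along the thin filament, had 3 and 0 UMIs, so few that nothing can be read from its ratio. For those with at least 20 UMIs in the flat muscle spots, Casq1 included, the log2 ratio over the other spots ran from 7.26 (Des) to 9.82 (Casq1).

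**Figure D2:**
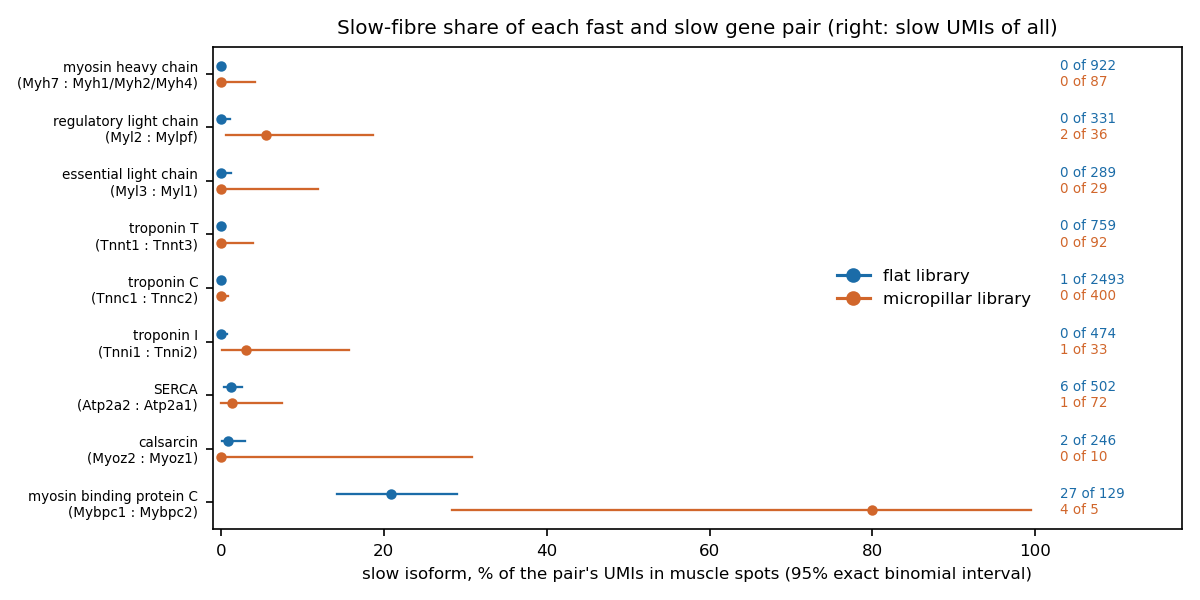
Slow gene as a percentage of the UMIs of each fast and slow pair in muscle spots (x axis), 1 row per pair, flat in blue and micropillar in orange, with 95% exact binomial intervals and the UMI counts at the right. All pairs but myosin binding protein C have values of 5.56% or lower in both libraries, with wide intervals in the micropillar library.

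The fast heavy chains were mixed differently in the muscle spots of the libraries. In the flat library Myh1 gave 674 of 922 heavy chain UMIs, 73.1% (70.1 to 75.9), Myh2 151, 16.4% (14.0 to 18.9), and Myh4 97, 10.5% (8.61 to 12.7). In the micropillar library Myh1 gave 47 of 87, 54.0% (43.0 to 64.8), Myh2 37, 42.5% (32.0 to 53.6), and Myh4 3, 3.45% (0.717 to 9.75). The intervals of Myh1 and of Myh2 do not overlap between the libraries, and those of Myh4 do. Outside the muscle spots Myh2 gave 13.7% (7.71 to 22.0) of 102 and 12.8% (8.40 to 18.5) of 187 heavy chain UMIs, with intervals that overlap.

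Single spots weigh heavily in the smaller library: 4 spots held 27 of the 37 Myh2 UMIs of the micropillar muscle spots, while the 4 highest flat spots held 32 of 151. Myh1 was the highest heavy chain alone in 179 of the 236 flat muscle spots with any, Myh2 in 26 and Myh4 in 14, and in 16, 6 and 0 of 24 micropillar muscle spots. The share also moved with depth. In muscle spots with at least 250 UMIs Myh2 gave 25.8% (20.2 to 32.1) in the flat and 47.2% (35.3 to 59.3) in the micropillar library, and with at least 500 UMIs 41.3% (30.1 to 53.3) and 62.0% (47.2 to 75.3), where only 5 flat and 7 micropillar spots were left and the intervals overlap. Reads of these near-identical genes could have been split or assigned between them by the counting.

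**Figure D3:**
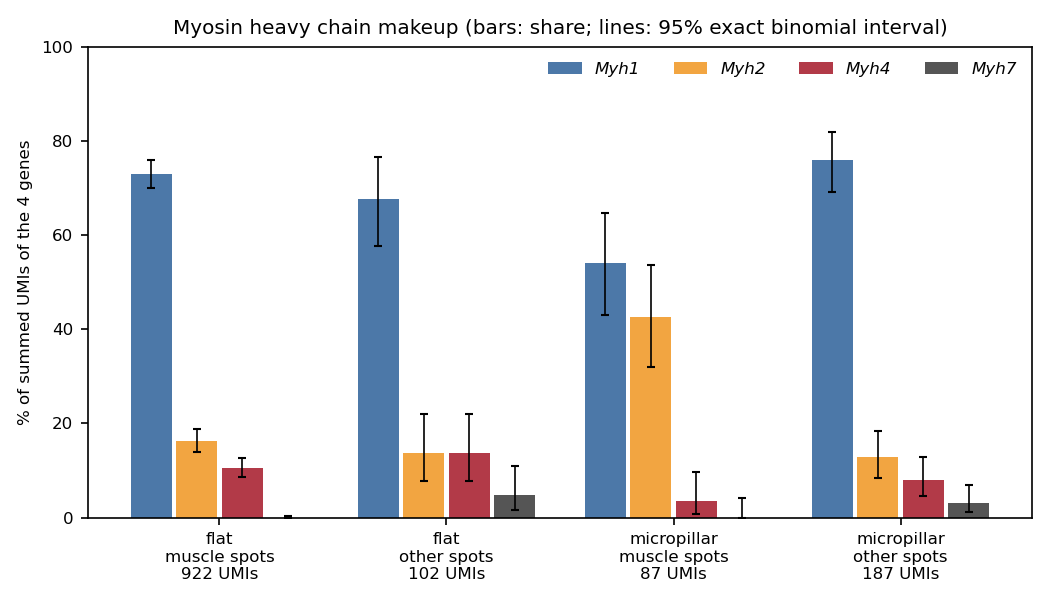
Share of each myosin heavy chain gene in the summed UMIs of the 4 genes (bars start at 0, lines are 95% exact binomial intervals) in muscle and other spots of each library. Myh2 stands at 42.5% in the micropillar muscle spots and between 12.8% and 16.4% in the other 3 sets.

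Within the flat library, spots could be set against each other by which of 2 myosins they held, a split chosen after the data were seen. Of the 268 muscle spots, 72 held Myh2 without Myh4 (18155 UMIs, median 204 per spot), 44 held Myh4 without Myh2 (7579 UMIs, median 159.5), 6 held both and 146 neither. Mybpc2 and Pygm were higher in the Myh4 spots, and Mb and Tcap were lower. Mybpc2, the fast myosin binding protein C, stood at 991 CPM in the Myh2 spots and 3958 CPM in the Myh4 spots, a log2 ratio of 2.00 (1.11 to 2.93). Pygm, the phosphorylase that releases glucose from glycogen, stood at 1983 and 4354 CPM, a ratio of 1.13 (0.41 to 1.86). Mybpc2 reached the minimum of 20 UMIs through the Myh4 spots alone. These were the 2 of 19 genes compared, leaving out the 4 that choose spots, that were at least 2-fold higher, where 6% of all 100 genes compared were. Myoz1 followed with 0.75 (0.22 to 1.27).

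Mb went the other way, from 6775 CPM in the Myh2 spots to 3431 CPM in the Myh4 spots, a log2 ratio of -0.98 (-1.65 to -0.36). Tcap had -0.58 (-1.0 to -0.17). No gene of the 19 was at least 2-fold lower, where 29.0% of all genes were. Intervals of 7 genes lay above 0 (Mybpc2, Pygm, Myoz1, Mylpf, Myh1, Tnnt3 and Tnnc2), those of Mb and Tcap below, and 10 included 0, among them Atp2a1 at 0.30 (-0.07 to 0.66) and Ttn at 0.16 (-0.31 to 0.63). Myh1 had 13054 and 18340.2 CPM, a ratio of 0.49 (0.18 to 0.80), so this heavy chain was abundant in both sets.

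Of the genes under the minimum of 20 UMIs, 5 had a UMI in both sets. Actn3, the alpha-actinin of fast glycolytic fibres, had 2 UMIs in the Myh2 and 17 in the Myh4 spots, a log2 ratio of 4.35 (2.27 to 7.51), and Casq1 had 9 and 18, a ratio of 2.26 (1.03 to 3.60). The intervals of the other 3 included 0: Actn2 had 2 and 4 UMIs, also 2.26 (-0.54 to 5.73), the slow Mybpc1 8 and 1, -1.74 (-7.21 to 1.16), and Smpx 7 and 3, 0.04 (-2.55 to 2.17).

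The energy supply list did not move as 1 group between these spots. Of its 10 genes compared, Pvalb, a calcium buffer of the fastest fibres, and Car3, a carbonic anhydrase of muscle, were at least 2-fold higher in the Myh4 spots, at 1.77 (0.92 to 2.65) and 1.20 (0.31 to 2.09). Fabp3, a fatty acid carrier, at -2.71 (-5.04 to -1.07), Cox7a1, a subunit of cytochrome oxidase, at -1.78 (-3.47 to -0.44), and Ckmt2, the mitochondrial creatine kinase, at -1.32 (-2.86 to -0.06), were at least 2-fold lower. That is 3 of 10, near the 29.0% of all 100 genes compared. Fabp3, Cox7a1 and Ckmt2 reached the minimum of 20 UMIs through the Myh2 spots alone. Among its glycolytic genes Aldoa had 0.77 (0.62 to 0.92), Pgam2 0.26 (-0.53 to 1.01) and Eno3 -0.01 (-0.71 to 0.66). Outside every list, and named after their values were seen, the glycolytic Pkm had -1.18 (-2.40 to -0.14), Gpi1 -0.59 (-1.76 to 0.45), and Ctsl, a lysosomal protease, 2.20 (1.18 to 3.29). Pkm and Gpi1 reached the minimum through the Myh2 spots alone, and Ctsl through the Myh4 spots alone.

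Since the Myh2 spots were deeper, the split was repeated in spots with at most 250 UMIs. There Mybpc2 had 1.67 (0.64 to 2.78), Pygm 1.08 (0.22 to 1.98), Mb -0.80 (-1.55 to -0.09) and Tcap -0.58 (-1.07 to -0.10), while the interval of Myoz1, 0.57 (-0.09 to 1.22), included 0. Pvalb had 1.05 (0.11 to 2.03) and Car3 0.36 (-0.59 to 1.30), Eno3 had 1.03 (0.11 to 1.98), and Ctsl had 2.01 (0.71 to 3.497). Mybpc2, Pvalb, Eno3 and Ctsl reached the minimum of 20 UMIs there through the Myh4 spots alone. Fabp3, Cox7a1, Ckmt2, Pkm and Gpi1 did not reach it in these shallow spots, so the repeat does not cover them. Spots of 1 section are not replicates. The micropillar library had 9, 1, 2 and 19 such spots, too few to repeat the comparison.

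Over whole sections the genes were lower in the micropillar library. Of the 38 genes, 29 had at least 20 UMIs in 1 library, and Myh7, Tnnt1, Tnni1, Myl2, Myl3, Myoz2, Neb, Myot and Smpx did not. Of the 29, 25 were at least 2-fold lower, where 1.12% of all 11202 genes were, and 0 were 2-fold higher, against 2.98%. Their median log2 ratio of micropillar over flat was -2.11, against 0.06 over all genes. Myoz1 was lowest, with 275 UMIs in the flat and 41 in the micropillar section, a log2 ratio of -3.23 (-3.74 to -2.76), followed by Myh4 with 111 and 18, -3.11 (-3.92 to -2.39). Of the 25, Myh4, Mybpc2, Actn3 and Mybpc1 reached the minimum of 20 UMIs through the flat library alone. Tnnc1, which is not among the 25, reached it through the micropillar library alone. The 4 genes not past 2-fold were Tpm1 at -0.55 (-0.63 to -0.47), Actn2 at -0.49 (-1.08 to 0.11), Atp2a2 at -0.05 (-0.13 to 0.04) and Tnnc1 at 0.23 (-0.79 to 1.30). The median moved with the depth required of a spot. In spots with at least 250 UMIs, which keep 33 of the 268 flat muscle spots and 17 of the 31 micropillar ones, the median was -0.59 and 7 genes were 2-fold lower, and with at least 500 UMIs the median was 0.06 and 1 gene was.

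Outside the muscle spots the libraries were close. Of 24 genes 0 were 2-fold lower and 0 higher, where 0.627% and 3.06% of all 11159 genes were, and the median log2 ratio was 0.09 against 0.06 over all genes. The range ran from Myoz1 at -0.52 (-1.28 to 0.25) to Ckm at 0.81 (0.39 to 1.25), and 5 intervals lay above 0, those of Ckm, Acta1, Tnnc2, Atp2a1 and Myh1. Acta1 and Ckm are capped there by the rule. With muscle spots chosen at 5% of Acta1 plus Ckm, which leaves more muscle among the other spots, the median outside was -0.95 with 11 genes 2-fold lower.

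Within muscle spots the genes were lower in the micropillar library by CPM, and their proportions to each other differed for a few. Of 26 genes, 13 were at least 2-fold lower, where 23.3% of all 313 genes were, and 0 were higher, against 5.11%. The median log2 ratio was -0.98 against -0.26 over all genes, with 20 intervals below 0. Of the 13, Mybpc2, Myh4, Actn3, Myoz1, Cmya5, Casq1 and Ldb3 reached the minimum of 20 UMIs through the flat spots alone. The flat set holds 50630 UMIs against 11046, so the minimum admits lower genes more readily than higher ones. This holds for the counts and for the shares over all genes. Mybpc2 was lowest, with 102 UMIs in the flat and 1 in the micropillar muscle spots, a log2 ratio of -4.48 (-9.79 to -1.97). Myoz1 had -2.41 (-3.49 to -1.51) and Tnnc2 -0.44 (-0.60 to -0.29). Myh2 was the 1 gene above 0, at 0.17 (-0.39 to 0.69), from 2982 and 3349.6 CPM. The size depends on the scaling: TMM factors shifted every ratio in these spots by -0.92. This put Myh2 at -0.76 (-1.32 to -0.23) and 25 of 26 genes past 2-fold lower. It also put the median of all genes at -1.19, so most of all 313 genes were past 2-fold lower too. The count depends on the spots too: it was 5 of 19 genes with at least 250 UMIs per spot, 3 of 15 with at least 500, and 20, 6 and 6 with muscle spots chosen at 0.5, 2 and 5% of Acta1 plus Ckm. The share over all genes is not given here for these choices of spots.

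A scale-free view is each gene's share of the summed UMIs of the 38 genes in muscle spots, 11649 flat and 1447 micropillar UMIs. This measure was chosen after the data were seen. The shares of 17 of 26 genes had an interval of the ratio that included 0, among them Tnnt3 at -0.04 (-0.36 to 0.28), Tpm1 at -0.06 (-0.37 to 0.24) and Ttn at 0.11 (-0.38 to 0.58). Myh2 was a larger share in the micropillar library, 2.56% against 1.30%, a log2 ratio of 0.98 (0.42 to 1.51), and so was Tnnc2, 27.6% against 21.4%, 0.37 (0.21 to 0.52). Smaller shares were those of Myh1 at -0.83 (-1.29 to -0.41), Myh4 at -2.01 (-4.31 to -0.42), Tnni2 at -0.88 (-1.44 to -0.36), Myoz1 at -1.60 (-2.68 to -0.70) and Mybpc2 at -3.66 (-8.98 to -1.15). Acta1 and Ckm, which chose the spots, had -0.29 and 0.50. Actn3, with 47 and 1 UMIs, had -2.55 (-7.88 to 0.003). Myh4, Myoz1, Mybpc2 and Actn3 were the genes whose share was at least 2-fold lower, and none was 2-fold higher. Each of these lower genes reached the minimum of 20 UMIs through the flat muscle spots alone. The flat set holds more UMIs, so the minimum admits genes with a lower micropillar share more readily than genes with a higher one.

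Other lists of muscle genes were read in the same spots. Of the cardiac list (Myh6, Tnnt2, Tnni3, Myl7, Nppa) no gene had a UMI in muscle spots of either library, and the smooth muscle list had 4 and 2 UMIs. Of the satellite cell and myogenic factor list 13 and 2 UMIs were found, 11 and 1 of them of Myf6, the myogenic factor of mature fibres. The developmental and specialised myosins had 3 UMIs and 1 UMI, while Myl4, an atrial and embryonic light chain of that list, had 136 and 165 UMIs outside. Of the excitation-contraction coupling list 9 of 11 genes with a UMI stood higher in flat muscle spots than outside and 5 of 11 in the micropillar library, read against the 22.9% and 19.3% of all genes given above. Of those with at least 20 UMIs, the highest in the flat library was Trdn, triadin of the calcium release complex, with 22 UMIs against 3, a log2 ratio of 8.32 (6.59 to 10.7). Fkbp1a, which steadies the release channel and is made by most cells, was lower, at -0.99 (-1.62 to -0.42), and Sln and Pln, the small inhibitors of the calcium pumps, had no UMI in either library's muscle spots. Of the energy supply list 13 of 14 genes stood higher in the flat library and 12 of 14 in the other. Its most abundant gene, Aldoa, an aldolase of glycolysis, had 55303 and 25349 CPM in muscle spots and a flat log2 ratio of 3.15 (3.09 to 3.21). Of its genes with at least 20 UMIs, Ckmt2 had the highest ratio at 9.40 (7.98 to 11.3), and Fabp3 the lowest at 2.91 (2.55 to 3.25). The Z-disc, M-band and costamere list had 17 of 19 and 12 of 17 higher, with Hspb7, a small heat shock protein of muscle, at 9.91 (7.28 to 15.3) and Cryab, another, at 3.54 (3.18 to 3.88) in the flat library.

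Lists of other tissues complete the muscle spots. The tendon list had 770 and 724 CPM, from 39 and 8 UMIs, against 80.4 and 69.2 CPM outside. Of these, Fmod, a collagen-binding proteoglycan, had 25 UMIs and 1 UMI. The erythroid list had 2212 and 2625 CPM (112 and 29 UMIs), and the keratinocyte and hair list 553 and 1358 CPM (28 and 15 UMIs). The macrophage list had 257 and 453 CPM (13 and 5 UMIs), and the striatal neuron list 119 and 181 CPM (6 and 2 UMIs). For each of these lists, tendon included, the intervals overlap between the libraries. Astrocyte, adipocyte and endothelium lists had at most 3 UMIs each in either library's muscle spots. Of all 313 genes compared between the libraries' muscle spots the highest micropillar over flat ratios were those of Mucl2 and the secretoglobin Scgb1b2, genes of secretory glands on no list. Neither had a UMI in the flat muscle spots, while the micropillar muscle spots had 34 UMIs of Mucl2 over 22 spots, 3078 CPM, and 27 of Scgb1b2 over 17 spots, 2444 CPM. In the other micropillar spots they stood at 468 and 309 CPM, and each had 1 UMI in the other flat spots. The part of gland RNA in the lower levels of the muscle genes was not tested.

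Several of the genes were also found in spots that are not muscle. Spots are named here by the marker list with most UMIs, which is not a cell type. Atp2a2 stood at 991 CPM in 923 neuron-list spots of the flat library and 921 CPM in 1246 of the micropillar library, and at 328 and 739 CPM in the 524 and 709 spots of the fibroblast and bone matrix list. Tpm1 was higher in the matrix spots, 1103 and 922 CPM, than in the neuron spots, 764 and 699.9 CPM. Acta1 had 381 and 285 CPM in the matrix spots and 61.4 and 63.2 CPM in the neuron spots, within the cap the rule sets. Tnnc2 had 702 and 499.6 CPM against 70.7 and 102 CPM.

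Among the spots outside muscle, Actn2 was highest in those of the striatal neuron list (Ppp1r1b, Adora2a, Drd2, Rgs9, Penk). It had 23 UMIs, 77.8 CPM (49.3 to 117), in 288 flat and 20 UMIs, 90.0 CPM (55.0 to 139), in 266 micropillar striatal spots, against 6 UMIs, 4.29 CPM, and 14 UMIs, 7.56 CPM, in the neuron spots. The log2 ratios were 4.18 (2.84 to 5.77) and 3.57 (2.52 to 4.67). Ryr1 did likewise with 18 UMIs in each striatal set, 60.8 and 81.0 CPM against 6.43 and 11.3 CPM, ratios of 3.24 (2.01 to 4.58) and 2.84 (1.84 to 3.82), under the minimum of 20 UMIs. Both genes are named after their values were seen, and Actn2 reached the minimum of 20 UMIs through the striatal spots alone. Of the 32 genes with a UMI in either of these sets in the flat library, 4 had an interval above 0, Actn2, Ryr1, Atp2a2 and Tpm1. Of 35 in the micropillar library 11 did, these other than Atp2a2 and also Acta1, Ckm, Myh1, Tnnt3, Tnnc2, Myl1, Atp2a1 and Myoz1. None had an interval below 0 in either library. The share of all genes with such intervals is not given here, so these counts do not show that the list stands out.

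By CPM both genes were higher in muscle spots than the striatal levels given above, with Actn2 at 356 and 272 CPM and Ryr1 at 2390 and 1992 CPM. Set against Tnnc2, the fast troponin C, Actn2 and Ryr1 stood higher in striatal than in muscle spots. Tnnc2 is itself a muscle gene, at 49220 and 36212 CPM in muscle spots. Any gene less restricted to muscle than Tnnc2 comes out higher outside by this measure. In the muscle spots Actn2 had 0.00722 (flat) and 0.00750 (micropillar) UMIs per Tnnc2 UMI, against 0.793 and 0.357 in the striatal spots. For Ryr1 the values were 0.0486 and 0.0550 against 0.621 and 0.321. Tnnc2 itself was at 98.0 and 252 CPM in the striatal spots, with a ratio over neuron spots of 0.47 (-0.18 to 1.08) in the flat and 1.30 (0.85 to 1.74) in the micropillar library.

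**Figure D4:**
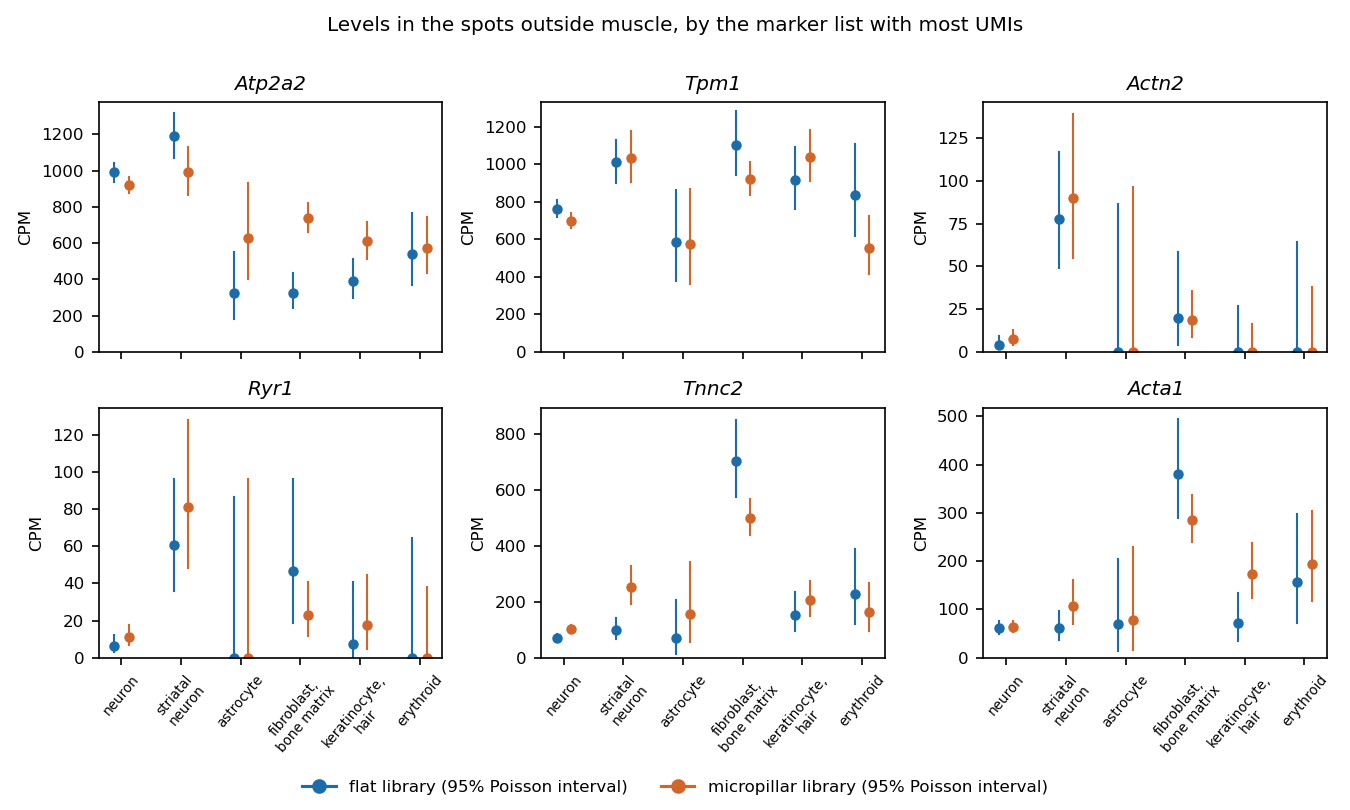
CPM of 6 genes in the spots outside muscle, by the marker list with most UMIs (x axis), in the flat (blue) and micropillar (orange) libraries, with 95% Poisson intervals. Actn2 and Ryr1 are highest under the striatal list in both libraries, and Tnnc2 and Acta1 under the fibroblast and bone matrix list.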

How the data were processed

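The measurements are unnormalised UMI counts of each gene in each spot, as deposited, for 2 libraries. Per the file headers the matrices came from Space Ranger 2.0.1, per the submitters' processing notes from Cell Ranger 7.2.0 with the mm10 build, whereas a TruSeq directional kit is named per the labels' protocol. The statements differ. Probe set and aligner settings were not given in the sources used here. If probes were used, capture differs per gene.

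Counts were summed over kept spots and divided by total UMIs (CPM), with no pseudocount. A gene was compared with at least 20 UMIs in 1 of the 2 sets of spots, or, for muscle over other spots, at least 20 in the muscle spots, observed or expected from the level outside. It was called past 2-fold. Ratios and shares have exact Clopper-Pearson and levels exact Poisson 95% intervals, which cover counting error only. For 0 UMIs the allowed limit is 3 counts. With 1 library per group no p-value was computed. For 11 symbols with more than 1 row, the row with most UMIs was taken. Doublets were not called, because spots are not cells. GENCODE M21 gave gene positions for all 38 genes and RefSeq the promoters. Named in full were the heavy chains, pair genes, Acta1, Ckm and the 6 lowest ratios of muscle over other spots. Of each other muscle list the most abundant gene and the highest and lowest ratios were taken where 20 UMIs allowed. Members, lists and spot rule were chosen with earlier results of these data known. Python 3.11.15, numpy 2.4.6, scipy 1.17.1, R 4.3.3, edgeR 4.0.16 (TMM) and DESeq2 1.42.0 (size factors) were used. The ratio code was tested on simulated data. Alternatives varied the minimum of UMIs, the muscle rule, the scaling, the weight of spots and the minimum per gene.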

Additional observations from a re-analysis of the deposited data

Results flagged for a closer look

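The spots left out for having fewer than 100 UMIs held muscle signal in both libraries. In 480 flat spots with 22950 UMIs the genes gave 6.35% of UMIs (6.04 to 6.67), against 0.537% in the kept spots and above the 0.0131% that 3 counts would give, and 131 of them met the muscle rule. In 239 micropillar spots with 15345 UMIs they gave 0.573% (0.460 to 0.706), against 0.121% in the kept spots and a limit of 0.0196%, and 14 met the rule.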

How the results depend on the processing

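No paired analysis was possible because each group had 1 library. Of all values recomputed under the alternatives, 193 stayed within their interval or within 1.5 times a count, 84 moved and 4 medians over the genes changed sign. Ratios of single genes under 2-fold also changed sign in muscle spots. Myh2, whose interval included 0, did so under 7 alternatives and ran from -0.77 (size factors) to 1.04 (threshold of 5%), and Tnnc2, at -0.44, was 0.15 at 5% and 0.37 as a share of member UMIs. Ttn between Myh4 and Myh2 spots went from 0.16 to -0.10 at most 250 UMIs. The cause was not tested for any of them.

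Flat muscle spots were 12.6% of spots with no minimum of UMIs, 1.63% at 250 and 0.335% at 500, and 11.4%, 8.88% and 5.93% at thresholds of 0.5, 2 and 5%, and 8.13% by 5 other muscle genes. Micropillar muscle spots were 0.622% at 250 UMIs, 0.318% at 500, and 2.35%, 0.424% and 0.131% at the 3 thresholds. The flat share of UMIs of the 34 genes in muscle spots was 69.7% at 250 UMIs, 50.5% at 500, 88.6%, 84.6% and 63.2% at the thresholds, 86.3% with at least 3 UMIs of Acta1 plus Ckm and 73.0% by other genes. The micropillar share was 31.7% at 500 UMIs, 39.3%, 26.5% and 15.0% at the thresholds and 29.5% by other genes. The flat slow share was 0.215% at 500 UMIs, and no other alternative moved either library's slow share past its interval. The Myh2 share was 25.8% and 41.3% at 250 and 500 UMIs in the flat library, and 62.0% at 500 UMIs and 64.7% at 5% in the micropillar library.

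Most genes entered the next medians through their UMIs in muscle spots. The median ratio of muscle over other spots in the flat library was 9.56 at 500 UMIs, 6.95 at 5%, 7.18 by other genes and 7.05 by mean CPM per spot. In the micropillar library it was 8.37 at 500 UMIs and 5.94 by mean CPM per spot. The section median was -0.59 at 250 UMIs (7 genes lower), changed sign to 0.061 at 500 (1 lower) and was -3.32 by mean CPM per spot. In muscle spots the median was -1.90 with TMM and -1.91 with size factors (25 lower in each) and -0.17 by share of member UMIs (4 lower). The median of all genes in muscle spots was -1.19 with TMM and -1.20 with size factors. There 5 genes were lower at 250 UMIs, 3 at 500, 20 at 0.5%, 6 at 2% and 6 at 5%. Outside, the median changed sign to -0.95 at 5% (11 lower), -0.93 by other genes (12 lower) and -0.077 by mean CPM per spot, and 1 gene was lower with no minimum per gene. The micropillar muscle spots are few, 31 with 11046 UMIs, and 72 to 4 at thresholds of 0.5 to 5%.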
